A study of Mus musculus with 6 samples.

Results

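Trank1, Galnt7 and Syngr2 were 3 of the 55416 genes in a table of RNA-seq estimated counts and TPM from primary mouse chondrocytes. They were picked by name, and earlier results of the same libraries were known when they were picked. Each was higher after Pkm2 knockdown in every replicate-numbered pair. Each had a coefficient of variation over siNC below the median of all tested genes, whereas over siPkm2 that of Trank1 and Galnt7 was above it. The rise and the spread belong to the choice, so the difference between the groups is described for these genes and carries no p-value.

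The chondrocytes, the resident cells of cartilage, came from mouse knee joints and grew in DMEM/F12 with 10% FBS. They were transfected with a scrambled siRNA (siNC, n = 3 libraries, genotype given as WT) or with an siRNA (siPkm2, n = 3 libraries) against Pkm2, a splice isoform of the Pkm gene for the glycolytic enzyme pyruvate kinase. The labels describe the knees as neonatal, whereas the study's methods for chondrocyte culture describe cartilage of mice several weeks old. The genotype field names the siPkm2 libraries as PKM2, PKM3 and PKM4 knockdown, and their titles name all of them siPKM2. No age, sex or strain is given per library, and no source used here states whether libraries of a group came from separate cultures or animals, so a p-value measures the spread between these samples only. Transfection is the same in both groups, and an effect of this siRNA other than the loss of Pkm2 cannot be told apart from the knockdown.

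Trank1 codes for a very large protein with tetratricopeptide and ankyrin repeats and a helicase-like region, and its human counterpart lies at a locus associated with bipolar disorder. Galnt7 codes for a Golgi enzyme of the polypeptide GalNAc-transferase family, which starts mucin-type O-glycans by attaching N-acetylgalactosamine to serine and threonine. Galnt7 and its relative Galnt10 favour peptides that already carry such a sugar and so act after the initiating members. Syngr2, or cellugyrin, is the synaptogyrin of cells other than neurons, a small protein with several membrane spans that marks transport vesicles, among them a pool of vesicles that carries the glucose transporter GLUT4 in fat and muscle cells. Interferon-stimulated genes, set beside these 3 genes below, code for antiviral proteins that are switched on when interferon binds its receptor.

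The libraries held between 22317065 and 25691096 estimated counts, and 28059 genes had a count in at least 1 library. Pkm, the targeted gene, had 2335, 2746 and 1674 CPM (counts relative to the library total, scaled by TMM factors) in replicates 1, 2 and 3 of siNC, against 336, 541 and 309 CPM after knockdown, so the groups did not overlap. The 9 chondrocyte markers summed to 3767 to 16310 TPM (transcript counts relative to length and library total) in siNC and 5064 to 13508 TPM in siPkm2. Macrophage markers summed to 11.4 to 118 TPM in siNC and 16.3 to 87.6 TPM in siPkm2, with at most 2 counts of Ptprc, 5 of Adgre1 and 10 of C1qa in any library. The others on the list were counted in every library. Cd68 had 109, 1373 and 41 counts in siNC and 253, 858 and 89 in siPkm2. Cd14 had 24, 369 and 28 counts in siNC and 106, 605 and 71 in siPkm2. Lyz2 had 43 to 83 counts and Csf1r 14.1 to 53.3. Endothelial markers summed to at most 1.05 TPM, neuronal markers to at most 10.2, muscle markers to at most 7.35 and osteoblast markers to at most 289 TPM. Synovial fibroblast markers summed to 1388 to 2731 TPM in siNC and 1011 to 2470 TPM in siPkm2. The part of these cells in the levels of Trank1, Galnt7 and Syngr2 was not tested. Both libraries numbered 2 stood apart, with the lowest sum of chondrocyte markers and the highest of inflammatory genes in their group. The log2 fold changes of Trank1, Galnt7 and Syngr2, the calls of interferon-stimulated genes and the numbers of genes called are also given without them. The correlations and the tests of other named genes are given with all 6 libraries only. Fewer expressing cells and less RNA per cell cannot be told apart in bulk libraries.

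Positions were taken from GENCODE M21 (GRCm38), matched by Ensembl identifier, because the deposited table carries none. Trank1 (ENSMUSG00000062296) lies on the plus strand at chr9:111311739-111395775, with 22 exons in its longest annotated transcript by exon number. Galnt7 (ENSMUSG00000031608) lies on the minus strand at chr8:57523828-57653032, with up to 12 exons, and Syngr2 (ENSMUSG00000048277) on the plus strand at chr11:117809668-117814283, with up to 4 exons. The genes spanned 84.0, 129.2 and 4.6 kilobases in that order. The sequence around each start is shown because the 3 genes were chosen for moving in the same direction. Each runs from 250 bases before the RefSeq start of the gene (GRCm38.p6) to 50 bases from it onward, 5′ to 3′ on the gene's own strand, and capitals mark matches to the GC box GGGCGG or the CCAAT box CCAAT on either strand. The windows are chr9:111311489-111311788 for Trank1, chr8:57653006-57653305 for Galnt7 and chr11:117809417-117809716 for Syngr2.
Trank1: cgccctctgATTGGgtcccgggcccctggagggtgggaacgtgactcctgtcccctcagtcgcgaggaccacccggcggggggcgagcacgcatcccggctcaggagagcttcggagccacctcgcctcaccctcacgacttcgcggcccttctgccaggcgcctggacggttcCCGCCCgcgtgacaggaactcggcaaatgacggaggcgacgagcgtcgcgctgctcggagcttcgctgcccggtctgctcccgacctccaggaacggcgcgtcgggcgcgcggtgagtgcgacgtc
Galnt7: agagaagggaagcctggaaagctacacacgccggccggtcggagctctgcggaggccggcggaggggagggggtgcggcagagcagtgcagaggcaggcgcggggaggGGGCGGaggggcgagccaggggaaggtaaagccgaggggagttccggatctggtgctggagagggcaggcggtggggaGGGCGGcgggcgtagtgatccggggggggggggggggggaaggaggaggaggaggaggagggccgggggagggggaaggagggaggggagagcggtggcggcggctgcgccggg
Syngr2: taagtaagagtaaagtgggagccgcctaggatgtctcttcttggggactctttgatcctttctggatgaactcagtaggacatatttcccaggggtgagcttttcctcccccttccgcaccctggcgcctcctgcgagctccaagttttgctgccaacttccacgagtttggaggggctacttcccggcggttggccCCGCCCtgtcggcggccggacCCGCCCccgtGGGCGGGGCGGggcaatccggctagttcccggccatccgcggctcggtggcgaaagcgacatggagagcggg

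All 3 windows held a GC box, the letters bound by the SP family of factors, with 1 match in Trank1, 2 in Galnt7 and 4 in Syngr2. A GC box was present in 35.7% of 32851 RefSeq windows of the same length and in 61.1% of the windows of tested genes, so its presence is common. In Syngr2 a pair of the matches overlapped, beginning 22 and 17 bases before the start. Trank1 also had a CCAAT box on the reverse strand, beginning 241 bases before the start, a match found in 37.4% of all windows. None of the 3 windows held the core of the interferon-stimulated response element (ISRE), a pair of GAAA with 2 bases of any kind between them, which occurred in 3.4% of all windows and in those of 14 of the 24 interferon-stimulated genes with a window. None held the GAS letters TTCNNNGAA (8.3% of all windows, 5 of the same 24), the TATA box TATAAA (13.6%) or the cAMP response element TGACGTCA (1.8%). These searches cover both strands of the printed bases only, and a match or its absence says nothing about a factor's binding. GC content was 71.7% in Trank1, 75.0% in Galnt7 and 63.0% in Syngr2, against a median of 52.7% over all windows. The windows held 40, 25 and 23 CpG dinucleotides in the same order, against a median of 7. Both medians cover all RefSeq windows and not those of tested genes alone, which held a GC box more often.

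Trank1 was close to the floor of detection in siNC and was readily counted in siPkm2. Its estimated counts were 9, 8 and 9 in siNC replicates 1, 2 and 3, with exact Poisson 95% intervals between 3.45 and 17.1 counts, and 248, 142 and 153 in siPkm2, with intervals between 119.6 and 281 counts. These intervals cover counting error only. On the CPM scale this was 0.360, 0.324 and 0.394 in siNC and 11.6, 5.52 and 6.99 in siPkm2. The siNC libraries lay within counting error of each other, the siPkm2 libraries spread more widely with replicate 1 highest, and no library of a group reached the other group. The means were 0.359 ± 0.035 CPM in siNC and 8.03 ± 3.15 CPM in siPkm2 (SD, n = 3 each). The log2 fold change was 4.46 with a standard error of 0.40 in edgeR's fit over all genes, and the folds within pairs 1, 2 and 3 were 32.1, 17.1 and 17.7. Trank1 ranked 3 of 15269 tested genes both by log2 fold change and by the smallest change of its pairs. Trank1 passed the filter on low counts only through siPkm2, since 0 of the 3 siNC libraries and 3 of the 3 siPkm2 libraries exceeded 0.434 CPM.

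Galnt7 moved from a low to a moderate level. Its estimated counts were 278, 395 and 301 in siNC and 1372, 1074 and 1165 in siPkm2. The CPM values were 11.1, 16.0 and 13.2 in siNC and 64.0, 41.8 and 53.2 in siPkm2. Replicate 2 was the highest siNC library and the lowest siPkm2 library, and still the groups did not overlap. The means were 13.4 ± 2.43 CPM in siNC and 53.0 ± 11.1 CPM in siPkm2 (SD, n = 3 each). The log2 fold change was 1.98 with a standard error of 0.22, and the folds within the pairs were 5.75, 2.61 and 4.04. Galnt7 ranked 89 by log2 fold change and 90 by the smallest change of its pairs among the 15269 genes.

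Syngr2 was the most abundant of the 3 genes and had the smallest fold. Its estimated counts were 1018, 1208 and 831 in siNC and 2108, 2858 and 2632 in siPkm2. The CPM values were 40.8, 48.9 and 36.4 in siNC and 98.3, 111 and 120 in siPkm2, so that the lowest siPkm2 library stood 2.01-fold above the highest siNC library. The means were 42.0 ± 6.33 CPM in siNC and 109.9 ± 11.1 CPM in siPkm2 (SD, n = 3 each). The log2 fold change was 1.39 with a standard error of 0.16, and the folds within the pairs were 2.41, 2.28 and 3.31. Syngr2 ranked 260 by log2 fold change and 135 by the smallest change of its pairs.

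**Figure D1:**
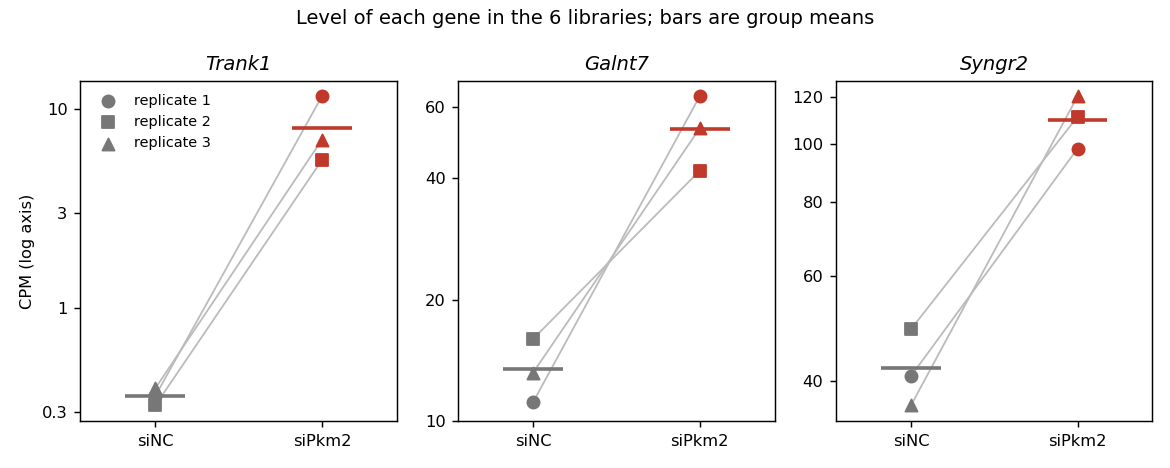
CPM (log axis, a separate scale for each gene) of Trank1, Galnt7 and Syngr2 in the 3 siNC (grey) and 3 siPkm2 (red) libraries, with thin lines joining libraries of the same replicate number and thick bars at the group means. Every line rises, from siNC means of 0.359, 13.4 and 42.0 CPM to siPkm2 means of 8.03, 53.0 and 109.9 CPM.

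Every siPkm2 library lay above every siNC library for all 3 genes, as it did for 12% of the 15269 genes tested, and the genes were higher in all 3 pairs, as were 30.5% of genes tested. Both are part of how the genes were picked. Across all genes, edgeR's quasi-likelihood test without the replicate number called 0 genes at a fold over 2 and a Benjamini-Hochberg adjusted p under 0.05 (0%), with 2690 genes (17.6%) at an unadjusted p under 0.05, and DESeq2 called 430. With the replicate number as a block, edgeR called 890 genes (5.83%), of which 405 (2.65%) were higher and 485 (3.18%) lower in siPkm2. The log2 fold changes of Trank1, Galnt7 and Syngr2 with the block were 4.42, 1.97 and 1.39. Without both libraries numbered 2 they were 4.59, 2.26 and 1.49.

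Per unit of length, the genes kept the order Syngr2, Galnt7, Trank1 in every library. In TPM, Trank1 stood at 0.07, 0.11 and 0.07 in siNC and at 2.13, 1.07 and 1.41 in siPkm2. At most 1.05% of tested genes had a lower TPM than Trank1 in an siNC library, and 12.7% to 22.7% did in an siPkm2 library, so it remained a lowly expressed gene after knockdown. Galnt7 had 4.21, 6.81 and 5.63 TPM in siNC and 24.1, 16.9 and 20.6 TPM in siPkm2. It passed from a level above 30.5% to 34.3% of tested genes to one above 55.1% to 66.1%. Syngr2 had 46.9, 65.6 and 51.0 TPM in siNC and 115, 138.7 and 145.9 TPM in siPkm2, a level above at least 81.5% of tested genes in every library. The ratios of mean TPM were 18.4 for Trank1, 3.71 for Galnt7 and 2.45 for Syngr2.

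Spread within a group differed between the genes. Between siNC libraries the highest level was 1.22 times the lowest for Trank1, 1.44 times for Galnt7 and 1.34 times for Syngr2, and between siPkm2 libraries 2.09, 1.53 and 1.22 times. The coefficient of variation over siNC was 9.80% for Trank1, 18.1% for Galnt7 and 15.1% for Syngr2, against a median of 22.8% over all tested genes. Over siPkm2 it was 39.2%, 20.9% and 10.1%, against a median of 19.6%. The siNC values of Trank1 rest on 8 or 9 counts, and the spread was part of how the genes were picked, so these values are given as a description only.

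The genes were then set beside 31 interferon-stimulated genes, which had been seen to differ between replicate numbers in these libraries. The median log2 CPM of the interferon-stimulated genes was 1.61, 6.73 and 2.37 in siNC replicates 1, 2 and 3 and 5.77, 7.25 and 5.31 in siPkm2. Replicate 2 of siNC thus stood above the siPkm2 libraries 1 and 3, and the range over siNC was 5.13 log2 units. Each of the 31 genes was higher in siNC replicate 2 than in the mean of siNC replicates 1 and 3, by a median of 32.9-fold and by 2.35-fold at the least. By the same ratio Trank1 was 0.858-fold, Galnt7 1.31-fold and Syngr2 1.27-fold. In TPM the direction turned for Trank1, which was 1.57-fold from values of 0.07, 0.11 and 0.07 TPM, while Galnt7 was 1.38-fold, Syngr2 1.34-fold and the median of the interferon-stimulated genes 31.5-fold. The range over siNC was 0.28 log2 units for Trank1, 0.52 for Galnt7 and 0.43 for Syngr2. The spread of these genes was part of their choice, so their narrower ranges follow in part from it. In the siNC library with the highest interferon-stimulated genes, Trank1 had 8 counts, 1 fewer than in the other siNC libraries and within counting error of them, while Galnt7 and Syngr2 had their highest siNC levels.

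**Figure D2:**
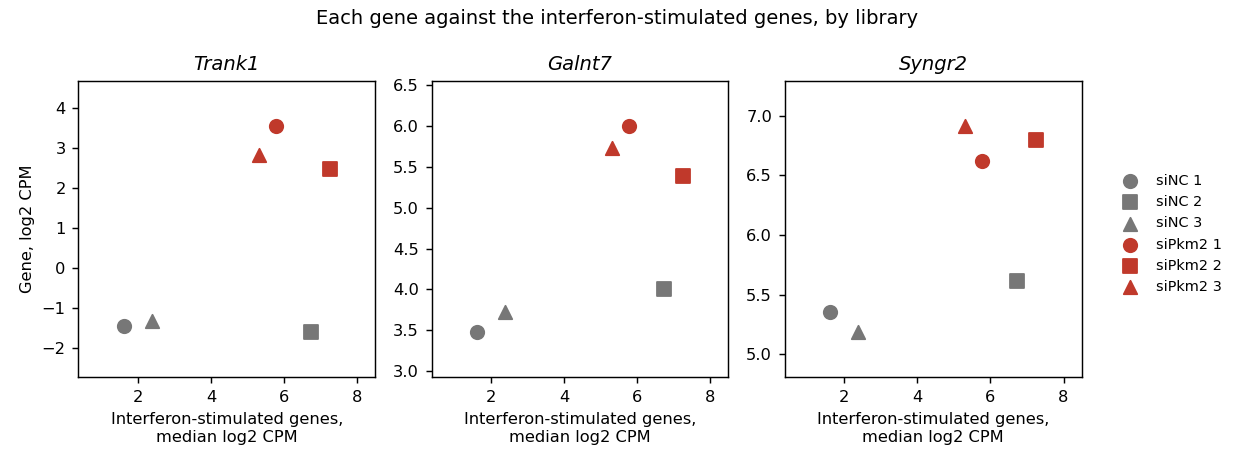
Log2 CPM of Trank1, Galnt7 and Syngr2 (vertical axes) against the median log2 CPM of the 31 interferon-stimulated genes (horizontal axes), 1 point for each siNC (grey) and siPkm2 (red) library, with the marker giving the replicate number. The siNC replicate 2 point (grey square) sits far to the right, at 6.73, within 0.52 log2 units of the other siNC points in height.

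Within siPkm2, replicate 2 again had the highest interferon-stimulated genes. Against the mean of log2 levels in siPkm2 replicates 1 and 3, replicate 2 was 3.27-fold for the median of the list, 0.615-fold for Trank1, 0.716-fold for Galnt7 and 1.02-fold for Syngr2. Trank1 and Galnt7 were lowest in that library, and Syngr2 lay between the other two. Over the 6 libraries Pearson's r with the median of the interferon-stimulated genes was 0.55 for Trank1, 0.65 for Galnt7 and 0.69 for Syngr2, and Spearman's rho was 0.14, 0.54 and 0.54. For deviations from the group means, r was -0.38, 0.37 and 0.65. On the log2(TPM + 1) scale r was 0.57, 0.69 and 0.75, rho 0.52, 0.54 and 0.60, and r of deviations -0.07, 0.49 and 0.77, so rho and the deviations of Trank1 depended on the scale. These are descriptions of 6 libraries that fall into 2 groups and share replicate numbers, and no test was made of them.

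The change from siNC to siPkm2 was also taken within each pair. The median change of the interferon-stimulated genes was 4.65, 0.77 and 3.30 log2 units in pairs 1, 2 and 3, so pair 2 had by far the smallest. The changes of Trank1 were 4.98, 4.07 and 4.13 log2 units, those of Galnt7 2.52, 1.39 and 2.01, and those of Syngr2 1.27, 1.19 and 1.72. Pair 2 was the smallest for each of these genes too, by a smaller number of log2 units. In TPM the folds within the pairs were 30.4, 9.73 and 20.1 for Trank1, 5.73, 2.49 and 3.66 for Galnt7, and 2.45, 2.11 and 2.86 for Syngr2, so that pair 2 of Trank1 was lower in TPM than in CPM (17.1) by more than 1.5 times. In pair 2, 31 of the 31 interferon-stimulated genes changed by less than Trank1, 27 by less than Galnt7 and 24 by less than Syngr2. In pair 1 these counts were 19, 4 and 1, and in pair 3 they were 20, 3 and 3. Trank1, Galnt7 and Syngr2 were chosen for rising in every pair. By the smallest change of their pairs they ranked 3, 90 and 135 of 15269 genes tested. The counts for pair 2 follow largely from that choice, and independence from the interferon-stimulated genes was not tested.

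**Figure D3:**
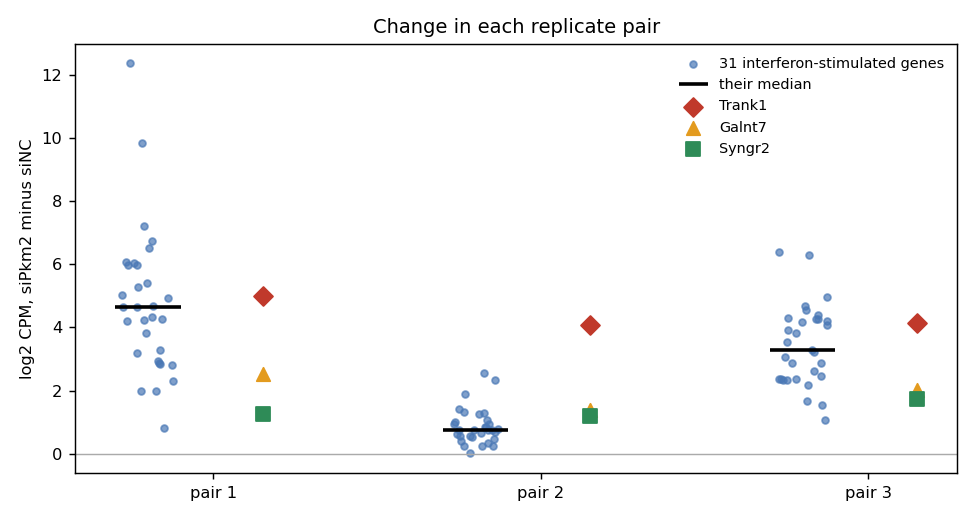
Change in log2 CPM from siNC to siPkm2 within each replicate-numbered pair, for the 31 interferon-stimulated genes (blue points, black bar at their median) and for Trank1, Galnt7 and Syngr2. The median of the interferon-stimulated genes drops from 4.65 in pair 1 to 0.77 in pair 2. Trank1, chosen for rising in every pair, lies between 4.07 and 4.98.

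The log2 fold change was above 0 for all 31 interferon-stimulated genes and its median was 1.30 against -0.02 over all genes tested. In edgeR's fit without the block, 0 of the 31 were called and 0 had an unadjusted p under 0.05, against 0% and 17.6% of all genes tested. With the block 14 of the 31 were called higher in siPkm2, against 2.65% of all genes tested, and the median of the 31 was 2.72. In the fit without both libraries numbered 2, 28 of the 31 were called higher, against 313 of 15185 genes tested (2.06%), and the median was 3.93. The replicate number itself, tested in edgeR over all genes with the group as a term, differed at an adjusted p under 0.05 for 18 of the 31 and for 26.1% of all genes tested. It did so for 13 of 13 tested inflammatory genes, among them Saa3, an acute-phase protein at 3437 CPM in siNC replicate 2 and 2844 CPM in siPkm2 replicate 2 and at no more than 1.37 CPM in the other libraries. These lists had been seen to differ between replicate numbers before they were tested for it here, so their counts are not independent evidence. The spread of Trank1, Galnt7 and Syngr2 between replicate numbers was part of their choice, so they were not tested for differences between replicate numbers.

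The profile of each gene over the libraries was then compared with that of every other tested gene by Pearson's r of log2 CPM. The 5 genes most like Trank1 over the 6 libraries were Xpo6, a nuclear exporter of actin (r = 0.999), Chmp1a, an ESCRT-III subunit (r = 0.998), 5031439G07Rik (r = 0.997), Map2k4, a kinase upstream of JNK (r = 0.997), and Dffa, the inhibitor of the apoptotic nuclease (r = 0.997). Their log2 fold changes lay between 0.33 and 1.11, smaller than that of Trank1. The siNC libraries lay within counting error of each other for Trank1, so r holds no order among them. Over 6 libraries in 2 groups, a difference between the groups alone can give a high r. The genes named here have the highest r of all tested genes, and shared regulation was not tested. Those most like Galnt7 were Tollip, an adaptor that binds Toll-like and interleukin-1 receptors (r = 0.999), Gpbp1l1 (r = 0.998), Pi15 (r = 0.997), Knop1 (r = 0.997) and Pip4k2c, a phosphoinositide kinase (r = 0.995). Pi15, which codes for a secreted protein, had means of 19.7 CPM in siNC and 181.9 CPM in siPkm2 and was also among the 5 most like Galnt7 by deviations from the group means (r = 0.983). Those most like Syngr2 were Fbxw9 (r = 0.995), Syt8, a synaptotagmin (r = 0.995), Rnf41, a ubiquitin ligase (r = 0.994), Gm15494 (r = 0.994) and Ppil4 (r = 0.993).

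A value of r over 0.95 was reached by 267 genes with Trank1 (1.75% of the other tested genes), by 253 with Galnt7 (1.66%) and by 190 with Syngr2 (1.24%). The choice of genes that rise in every pair favours a high r among them, and the 3 genes were correlated with each other at r = 0.98 (Trank1 and Galnt7), 0.95 (Trank1 and Syngr2) and 0.96 (Galnt7 and Syngr2). For deviations from the group means these values were 0.62, -0.62 and 0.11, so the sign was not the same for every pair of genes. By those deviations the genes most like Trank1 were 6530402F18Rik, Wdr11, Gipc1, Cmtr2 and Zfp973, those most like Galnt7 were Kbtbd4, Mfsd6, Mrtfb, Jmjd1c and Pi15, and those most like Syngr2 were Brf2, B130021K23Rik, Gm15406, Angpt2 and Tspyl2.

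The rise of Galnt7 was set beside the other 18 polypeptide GalNAc-transferase genes, of which 15 were tested. Their median log2 fold change was 0.11, and 9 of the 15 were positive. By edgeR's quasi-likelihood test 0 of the 15 were called without the block, with 2 at an unadjusted p under 0.05, and 0 were called with it. Over all genes tested these shares were 0%, 17.6% and 5.83%. Galnt10, the nearest relative of Galnt7 in preferring glycosylated peptides, stood at 96.7, 93.4 and 103.5 CPM in siNC and 116.4, 90.1 and 101.5 CPM in siPkm2, with a log2 fold change of 0.07 ± 0.14 (SE). The initiating enzymes Galnt1 and Galnt2 had the highest mean levels of the family, 49.7 and 56.2 TPM in siNC against 5.55 TPM for Galnt7, and 54.8 and 87.5 TPM in siPkm2 against 20.6 TPM. With the block, Galnt2 had a log2 fold change of 0.65 (edgeR adjusted p = 0.0199) and Galnt12 one of 0.67 (adjusted p = 0.0488), both under a fold of 2 and so not called. At any fold, an adjusted p under 0.05 with the block was reached by 2 of the 15 and by 3524 of the 15269 genes tested. Galnt6 and Galntl5 had at most 9 counts in any library and Galntl6 had none.

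Of 15 genes for enzymes that extend the sugar started by these transferases, 10 were tested, and their median log2 fold change was 0.03. edgeR called 0 of the 10 without the block, with 2 at an unadjusted p under 0.05, and called 2 higher and 1 lower with it. Of all genes tested, 17.6% had an unadjusted p under 0.05, and with the block 2.65% were called higher and 3.18% lower. C1galt1, the core 1 synthase that adds galactose, stood at 47.5, 82.4 and 60.6 CPM in siNC and 111.4, 149.9 and 145.0 CPM in siPkm2, so its groups did not overlap, and it rose with the block by a log2 fold change of 1.12 (edgeR adjusted p = 0.0109, against 0.128 without the block). Its chaperone C1galt1c1 had a log2 fold change of 0.37 with the block (adjusted p = 0.0837), and Gcnt4, a branching enzyme, had -0.77 (adjusted p = 0.0216), under a fold of 2. B3gnt3, which extends core 1, rose by 1.96 with the block (adjusted p = 0.0174) from a level of 0.641, 10.2 and 0.832 CPM in siNC to 4.20, 25.1 and 4.25 CPM in siPkm2, and was highest in both libraries numbered 2. St6galnac2, a sialyltransferase that caps these sugars, fell by 1.48 on the log2 scale with the block (adjusted p = 0.0405). At any fold, an adjusted p under 0.05 with the block was reached by 4 of the 10 and by 3524 of the 15269 genes tested.

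Syngr2 was set beside 12 genes for related tetraspan vesicle proteins, of which 7 were tested. Their median log2 fold change was 0.13, and edgeR called 0 of them in either fit. Of all genes tested, 0% were called without the block and 5.83% with it, so 0 of 7 is close to those shares. At an unadjusted p under 0.05 without the block there was 1, against 17.6% of all genes tested. Scamp5, a secretory carrier membrane protein, reached at most 28.6 CPM in siNC and had 15.7, 12.4 and 15.9 CPM in siPkm2, with a log2 fold change of -0.89 with the block (adjusted p = 0.0131), under a fold of 2. At any fold, an adjusted p under 0.05 with the block was reached by 1 of the 7 and by 3524 of the 15269 genes tested. Of the other synaptogyrins, Syngr1 had 7, 13 and 50 counts in siNC and 2, 10 and 0 in siPkm2, Syngr4 had at most 9 counts in a library, and Syngr3 had a log2 fold change of -0.39 ± 0.89 (SE) from at most 1.36 CPM. The highest count of Syngr1 was in siNC replicate 3, the library with 104 counts of the neuronal gene Snap25 against at most 8 elsewhere. The neuronal markers Rbfox3 and Nefl had 11 and 16 counts there and 0 elsewhere. Others differed, with Syt1 highest in siPkm2 replicate 1 (221 counts, against 198 in siNC replicate 3) and Tubb3 in siNC replicate 1 (98 against 54). Syngr2 was lowest in siNC replicate 3 in CPM, whereas in TPM siNC replicate 1 was lowest. Scamp3 was the most abundant of the related genes at 96.8 TPM in siNC and 104.5 TPM in siPkm2, and Syngr2 passed from below that level to above it, with mean values of 54.5 and 133.2 TPM.

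Of 11 genes for proteins of GLUT4 vesicles, all of which were tested, edgeR called 0 in either fit, and the median log2 fold change was -0.01. Of all genes tested, 0% were called without the block and 5.83% with it, so 0 of 11 is close to those shares. At an unadjusted p under 0.05 without the block there were 2, against 17.6% of all genes tested. With the block and under a fold of 2, Lnpep, the aminopeptidase that travels with GLUT4, had a log2 fold change of 0.52 (adjusted p = 0.0271), and Sort1, which codes for the sorting receptor sortilin, had -0.49 (adjusted p = 0.0178). At any fold, an adjusted p under 0.05 with the block was reached by 2 of the 11 and by 3524 of the 15269 genes tested. Slc2a4, which codes for GLUT4 itself, had at most 1.88 CPM in any library.

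Trank1 was set beside 13 genes for helicases of superfamily 1, of which 12 were tested. Their median log2 fold change was 0.25, and 0 of the 12 were called without the block or had an unadjusted p under 0.05 there. Of all genes tested, 17.6% had such a p, and with the block 2.65% were called higher. With the block 1 of the 12 was called higher, Helz2, an interferon-inducible helicase and coactivator of nuclear receptors, by a log2 fold change of 1.40 (edgeR adjusted p = 0.0342). Under a fold of 2 and so not called, Znfx1 and Mov10, RNA helicases of antiviral defence, had log2 fold changes of 0.89 (adjusted p = 0.0118) and 0.67 (adjusted p = 0.0276) with the block, and Helz had 0.39 (adjusted p = 0.0362). At any fold, an adjusted p under 0.05 with the block was reached by 4 of the 12 and by 3524 of the 15269 genes tested. Helz2 was at 29.3, 262 and 36.3 CPM in siNC and 115.5, 353 and 127.3 CPM in siPkm2, so its siNC replicate 2 lay above 2 of the siPkm2 libraries. In that siNC library Trank1 was at 0.324 CPM. Znfx1 (140 CPM) and Mov10 (85.3 CPM) in siNC replicate 2 also lay above siPkm2 replicates 1 and 3. Those were 68.2 and 72.6 CPM for Znfx1 and 71.5 and 62.1 CPM for Mov10. Without the block the edgeR adjusted p was 0.688 for Helz2, 0.610 for Znfx1 and 0.476 for Mov10.

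**Figure D4:**
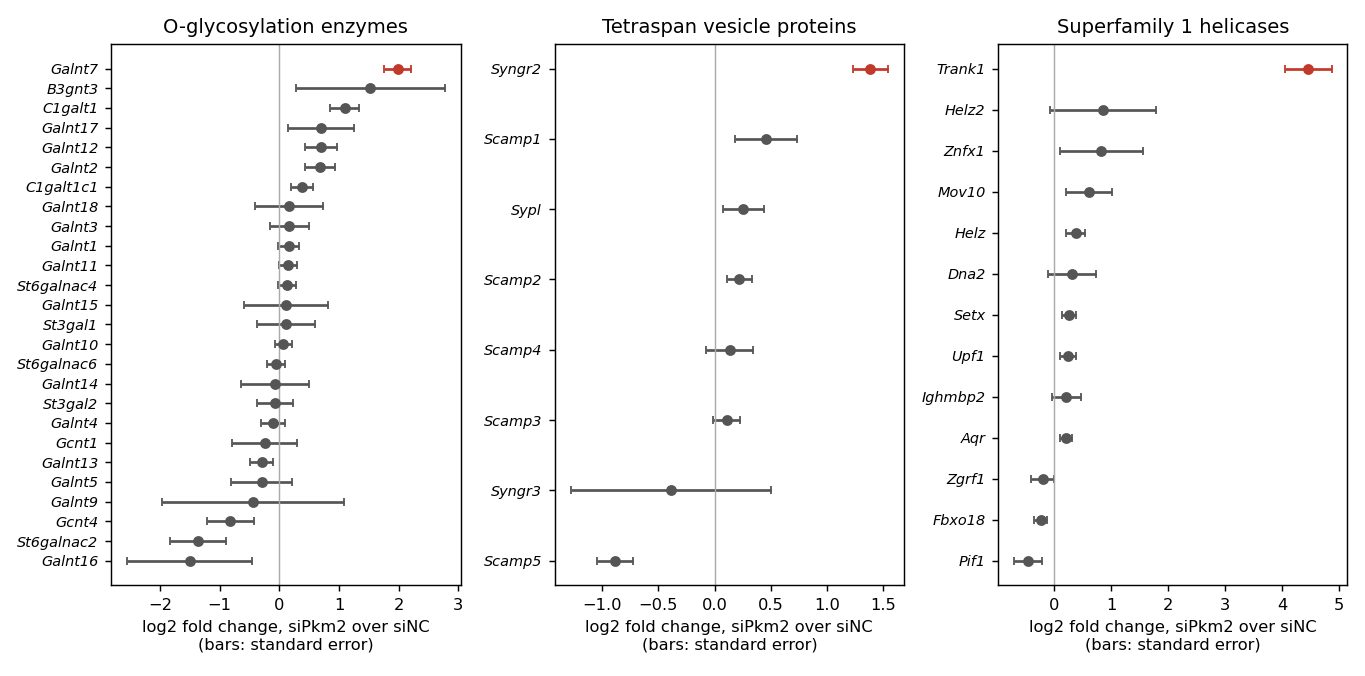
Log2 fold change of siPkm2 over siNC with its standard error (edgeR without the block) for Galnt7 and 25 other O-glycosylation enzymes, Syngr2 and 7 related vesicle proteins, and Trank1 and 12 superfamily 1 helicases, each panel on its own scale. Galnt7 (1.98), Syngr2 (1.39) and Trank1 (4.46), in red, were chosen for their rise and head their panels, and the relatives' medians lie between 0.03 and 0.25.

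Genes beside the 3 were read from the same fit. The nearest tested genes on either side of Trank1 were Epm2aip1, 32646 bases away, with a log2 fold change of -0.11 ± 0.14 (SE), and Stac, 165662 bases away, with -0.52 ± 0.69. Beside Galnt7, Hmgb2, a chromatin protein 7829 bases away, had -0.09 ± 0.31, and AW046200, a noncoding RNA that overlaps the start of Galnt7 on the opposite strand, had 0.05 ± 0.42 at a mean of 0.533 CPM in siNC. Beside Syngr2, Tmc8, 16558 bases away, had -0.72 ± 0.93, and Tk1, the thymidine kinase 1243 bases beyond its end, had -0.37 ± 0.32. None of these genes passed the test in either fit, with edgeR adjusted p-values of 0.598 to 0.968 without the block and 0.174 to 0.976 with it. Gm20708, a read-through gene that begins at the start of Syngr2, had 6.03, 21.9 and 0 estimated counts in siNC and 6.99, 0 and 15.2 in siPkm2, against 831 to 2858 for Syngr2, and how the counting divided reads between them is not given in the sources used here. Whether the counting used strand is not given in the sources used here, so reads from AW046200 and Galnt7 over their shared bases may not be told apart.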

How the data were processed

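RNA-seq libraries of siNC and siPkm2 chondrocytes (n = 3 each, Trizol RNA, Illumina libraries) were analysed from the files the authors deposited. The authors deposited estimated counts per gene, not normalized and partly fractional, and TPM, scaled within each library. The TPM files of single samples held the same values as the table. The table also holds the authors' fold change, log2 fold change, p-value, adjusted p-value, significance flags and mean TPM of each group, none of which was used. The submitters' processing notes name mm9 and edgeR with no role, and the aligner, counter and annotation are not given in the sources used here. Of the identifiers, 52135 of 55416 (94.1%) matched GENCODE M21 on GRCm38, used for positions only, and promoters came from RefSeq on GRCm38.p6.

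Estimated counts were rounded and fitted over all genes in R 4.3.3 with edgeR 4.0.16 (filterByExpr on the group, 15269 genes kept, TMM factors, quasi-likelihood test on the group alone, p-values adjusted by Benjamini-Hochberg over the 15269 genes). Calls needed a fold over 2 and an adjusted p under 0.05, the study's own threshold. Log2 CPM included a small prior count. Standard errors of edgeR log2 fold changes were derived as the absolute log2 fold change over the square root of the quasi-likelihood F statistic. The alternatives used DESeq2 1.42.0, RLE or upper-quartile factors, other filters, TPM on a log2 scale, each library left out, the replicate number as a block and, added after the data were seen, both libraries numbered 2 left out. The steps were tested on simulated data.

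The labels number the replicates 1 to 3 in both groups. Deviations from the group means correlated at 0.582, 0.695 and 0.547 between libraries of the same number and at 0.101 or below otherwise, so the numbers pair the libraries, and blocked values are given where they change a call. No pair of libraries within a group was a duplicate, with 53.7% to 73.9% of genes differing beyond counting noise.

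Trank1, Galnt7 and Syngr2 and all gene lists were chosen with earlier results of these data known. Named beside them were genes of the glycosylation, vesicle and helicase lists that passed the test, some with the highest TPM and nearest relatives. The 5 genes most like each in profile, the nearest tested neighbours and Pkm were also named. Interferon-stimulated, inflammatory and marker genes that passed with the block were not named as such. Saa3, Slc2a4, Helz2, single macrophage and neuronal markers and genes with few counts were also named after their values were seen.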

Additional observations from a re-analysis of the deposited data

How the results depend on the processing

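The log2 fold changes of Trank1, Galnt7 and Syngr2 were recomputed under 15 alternatives (14 for Trank1). Of these 44 values, 44 were positive, which largely follows from choosing genes that rise in every pair and is not independent evidence. Within 1 SD of the reported value lay 42. The SD is that of log2 CPM between libraries of a group, pooled over the 2 groups. The exceptions were Trank1 on the log2(TPM + 1) scale (1.21) and the log2(TPM + 0.1) scale (3.11), where the pseudocount exceeds or is near its siNC level. Leaving out each library in turn gave 4.10 to 4.67 for Trank1, 1.82 to 2.13 for Galnt7 and 1.30 to 1.51 for Syngr2. With at least 10 counts required in every library Trank1 was not tested. The number of genes called (0 as reported) was 3 with upper-quartile factors, 430 with DESeq2, 9 without a filter, 3 with at least 10 counts in every library, 890 with the replicate block and 507 without both libraries numbered 2. It ranged from 0 to 105 with a library left out, with 105 without siNC replicate 2. The number of list genes called (0 as reported) was 1 with DESeq2, 21 with the replicate block, 33 without both libraries numbered 2, and 0 to 6 with a library left out, 6 without siNC replicate 2. The cause of these differences was not tested. Depth limits Trank1, at 8 or 9 counts in each siNC library.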
